A study of Mus musculus with 2 samples.

Results

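The genes described are the clustered replication-dependent histone genes, chosen by symbol alone. Their names begin with Hist1h to Hist4h or follow the newer naming. The newer names are H1f with a number that starts with 1 to 6, and H2ac, H2bc, H3c or H4c with a number. The pattern found 67 of 55487 named genes, 7 of type H1, 19 of H2A, 17 of H2B, 12 of H3 and 12 of H4. RNA was sequenced from LPC-HRas cells, a mouse hepatocellular carcinoma line, infected with lentivirus carrying either the control hairpin shRFP or shETV4, a hairpin against the ETS transcription factor gene Etv4. Both groups are thus the same line carrying a lentiviral hairpin, and neither is an untreated control. Each hairpin gave 1 library, which leaves every difference without a replicate check; none was tested, and every value describes these libraries only. In GRCm38, 55 members lie on chromosome 13 between 21715763 and 23934851, in the region long called the Hist1 cluster, and 10 lie on chromosome 3 between 96219865 and 96270132, the Hist2 cluster. A further member on chromosome 13, Hist1h2al, is a processed pseudogene at 51202727 to 51203065. H1f10 on chromosome 6 matches the pattern by its number, but it encodes a linker histone that is made outside S phase and stands in no cluster.

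Replication-dependent histone genes supply the core histones H2A, H2B, H3 and H4, which form the nucleosome, and the linker histone H1, which binds where DNA enters and leaves it. They are transcribed mainly in S phase, lack introns as a rule, and end not in a poly(A) tail but in a conserved stem-loop that is bound by the protein SLBP and cut with the help of the U7 small nuclear RNA. Some of them also make polyadenylated transcripts that run past the stem-loop, mostly in cells that are leaving the cell cycle. A library made by poly(A) selection holds little of the stem-loop form; the labels name a TruSeq RNA kit and do not say how RNA was selected.

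The stem-loop is shown because it is the feature that sets these mRNAs apart from others. A 16-base hairpin, with a stem of 6 base pairs that starts in GG and closes on T and A around a 4-base loop of TTT and any base, was searched on the sense strand of GENCODE M21 transcripts, downstream of the stop codon in members. It was found in 41 of the 67 members and, anywhere in a transcript, in 14 of 21886 other protein-coding genes (0.0640%), among them the histone genes H2ax, H2aw, H2bu2, H2bfm and H4f16. Capitals mark the hairpin and lower case the neighbouring bases, in DNA letters 5′ to 3′, with positions in GRCm38.
H1f2 (H1, chr13:23739507-23739532, plus strand): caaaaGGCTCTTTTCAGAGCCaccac
H2ac11 (H2A, chr13:22042478-22042503, minus strand): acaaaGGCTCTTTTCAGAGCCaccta
H2ac19 (H2A, chr3:96239779-96239804, minus strand): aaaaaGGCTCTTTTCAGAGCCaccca
H2ac20 (H2A, chr3:96220413-96220438, minus strand): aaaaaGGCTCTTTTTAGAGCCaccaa
H2bc12 (H2B, chr13:22036295-22036320, plus strand): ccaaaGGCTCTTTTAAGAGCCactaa
H3c3 (H3, chr13:23745042-23745067, minus strand): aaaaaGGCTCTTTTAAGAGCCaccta
H4c2 (H4, chr13:23757361-23757386, plus strand): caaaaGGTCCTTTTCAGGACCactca
H4c9 (H4, chr13:22040961-22040986, minus strand): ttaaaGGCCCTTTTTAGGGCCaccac
Hist1h4m (H4, chr13:21812124-21812147, plus strand): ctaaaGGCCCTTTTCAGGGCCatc
Hist1h4n (H4, chr13:21831793-21831818, minus strand): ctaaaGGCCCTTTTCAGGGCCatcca
The same hairpin, that printed for H1f2, was carried by 24 members of types H1, H2A, H2B and H3. In H4 the stem differed: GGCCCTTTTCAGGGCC was in 6 members, the form printed for H4c9 in 2 and that printed for H4c2 in 2. The form printed for H2bc12 was in 6 members of H1, H2B and H3, and that of H2ac20 in that gene alone. Of the 26 members without a match, 15 have annotated transcripts that end at the stop codon or within 20 bases of it, so that the window holds no such sequence to find.

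Most members were barely represented. Values are TPM, transcript abundance per length and per library total, and their median over the 67 members was 1.18 in shRFP and 1.47 in shETV4, against 16.7 and 14.7 over the 12968 named genes that reached 1 TPM in at least 1 library. All members together held 255.82 TPM in shRFP and 357.06 TPM in shETV4, that is, 0.0256% and 0.0357% of each library, and without H1f10 they held 231.3 and 322.48 TPM. Where values come in pairs below, the shRFP library is first and the shETV4 library second. In both libraries 61 of the 67 stayed under 10 TPM, and 21 stayed under 1 TPM, of which 6 were listed at 0 in both. These 6 were H1f6, H2ac1 and H2bc1, which encode histones of the male germ line, the pseudogenes H2ac14 and Hist1h2al, and H2ac13. TPM keep no record of depth, so the counting error is unknown; a short transcript collects few reads per TPM.

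**Figure D1:**
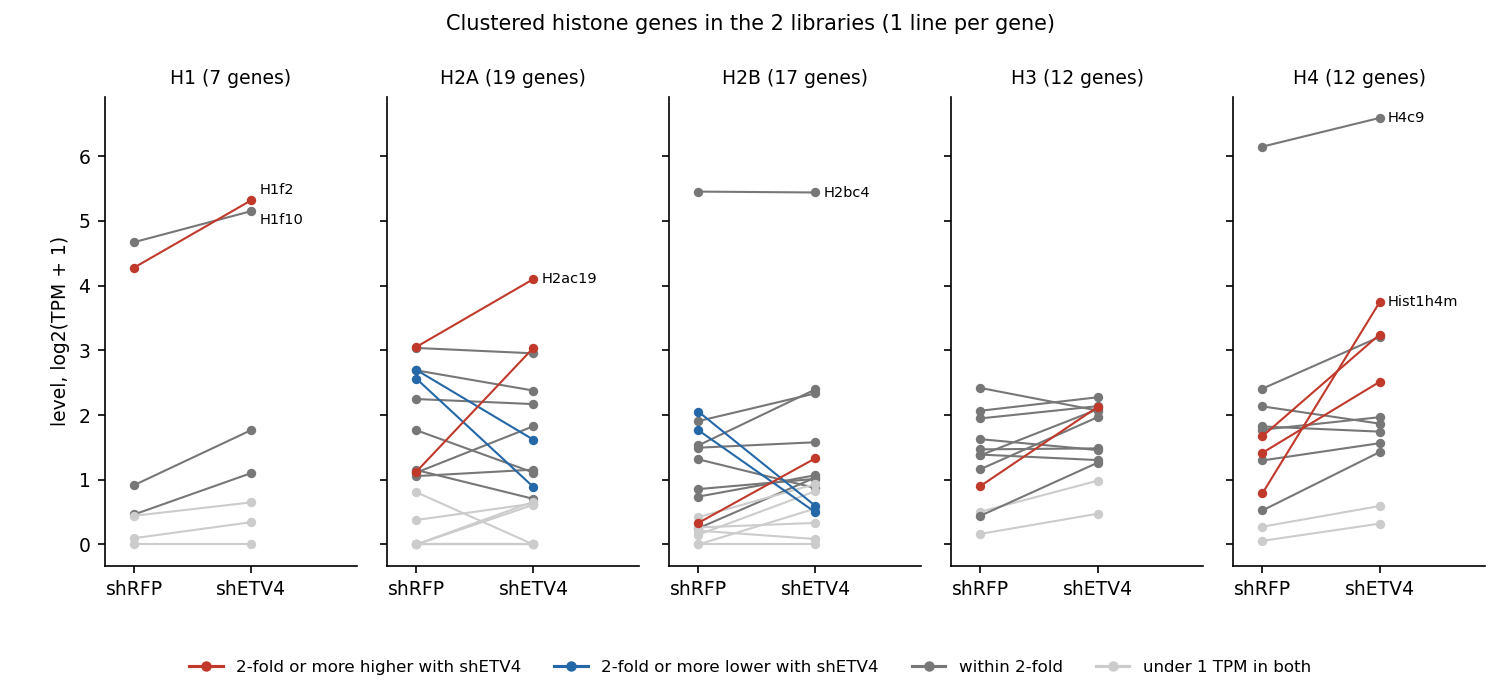
Level of each of the 67 histone genes, as log2(TPM + 1), in the shRFP and the shETV4 library, by histone type; each line is a gene and colour gives its difference between the libraries. H4c9, H2bc4, H1f2 and H1f10 lie at 10 TPM or more in both libraries, above all other members, and no H3 gene reaches that level.

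The 4 members at 10 TPM or more in both libraries, H4c9, H2bc4, H1f10 and H1f2, held 60.9% of the members' TPM with shRFP and 59.2% with shETV4. H4c9, earlier Hist1h4i, was at 69.98 and 95.53 TPM, and H2bc4, earlier Hist1h2bc, at 42.84 and 42.43 TPM. H1f10 was at 24.52 and 34.58 TPM and H1f2, earlier Hist1h1c, at 18.44 and 39.0 TPM. The annotated transcripts of these genes do not end at the stem-loop: that of H4c9 runs 330 bases past it and that of H1f2 840 bases. The annotated transcript of H2bc4 has 2 exons, 742 bases after the stop codon and no match to the hairpin, and that of H1f10 has 369 bases after the stop codon and no match. A long annotated end did not by itself go with a high level, since the 20 members whose transcript runs over 60 bases past the stem-loop had medians of 0.39 and 1.225 TPM, and H2ac6, running 2010 bases past it, was at 0.3 and 0.55 TPM. The 21 members whose transcript ends within 60 bases after the stem-loop had medians of 1.67 and 2.07 TPM and reached at most 7.3 TPM with shRFP and 16.18 TPM with shETV4. By length, the 17 members with a transcript over 1000 bases summed to 92.24 and 128.81 TPM and the 50 shorter ones to 163.58 and 228.25 TPM, higher with shETV4 in both. Because TPM divide by the annotated length, a stem-loop form counted against a long model is given a lower value.

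**Figure D2:**
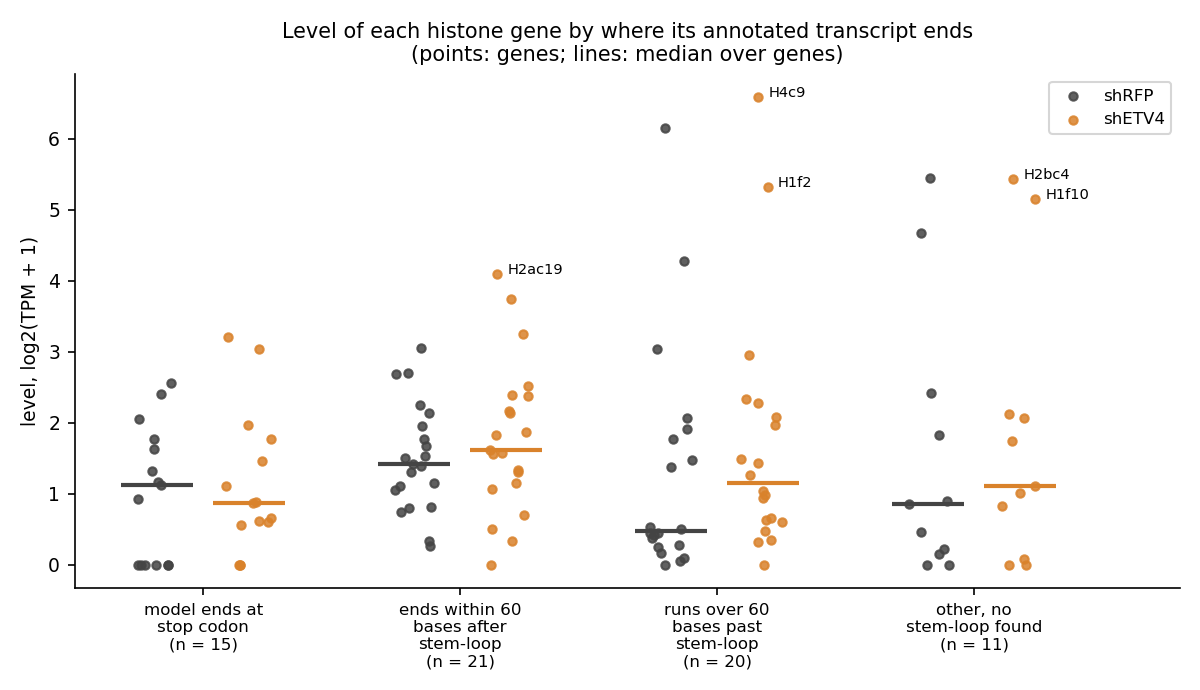
Level of each histone gene, as log2(TPM + 1), by where its annotated transcript ends relative to the stop codon and the stem-loop; points are genes, horizontal lines medians over genes, with both libraries side by side. The highest genes, H4c9, H1f2, H2bc4 and H1f10, have transcripts that run past the stem-loop or hold no match to it.

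Between the libraries, histone members differed in both directions, and more were higher than lower with shETV4. Over all 67 members, 43 had a higher TPM with shETV4, 18 a lower one and 6 the same value of 0. Each difference below is the shETV4 value of log2(TPM + 1) less the shRFP value, which compresses differences between low values, and a gene that reached 1 TPM in at least 1 library was called higher or lower at 2-fold on that scale. Of the 46 members that reached 1 TPM, 8 were called higher (17.4%), against 3.39% of all 12968 genes, and 4 lower (8.70%), against 7.06%. Most members have short transcripts and low levels, and these change the background. Of genes whose higher library lay at 1 to 10 TPM, 5.34% were called higher and 8.85% lower. Of protein-coding genes with a median transcript of 1000 bases or fewer the shares were 2.45% and 5.03%, and of the 880 genes that meet both conditions 6.36% and 7.95%. The median difference of the 46 was 0.24, that of all genes -0.10. Of the 46, 30 (65.2%) had a difference above 0, against 41.6% of all 12968 genes. The pass at 1 TPM bears on these counts: 10 members passed through shETV4 alone and 3 of them were called higher. Through shRFP alone 5 passed and 3 of them were called lower. Of the 31 at 1 TPM or more in both libraries 5 were higher and 1 lower. The share over all genes under that last condition was not computed, so those counts stand without a background. Just inside the 1 TPM filter were H2bc21, H2bc6 and H2bc3, with a higher value of 1.02 to 1.1 TPM, and just outside it H3c6 at 0.98 TPM and H2bc9 at 0.91 TPM. The calls also rest on low values, and with a pseudocount of 5 in place of 1 only Hist1h4m was called higher and no member lower. In bulk RNA, a different share of cells in S phase and a different amount of histone mRNA per cell cannot be told apart.

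**Figure D3:**
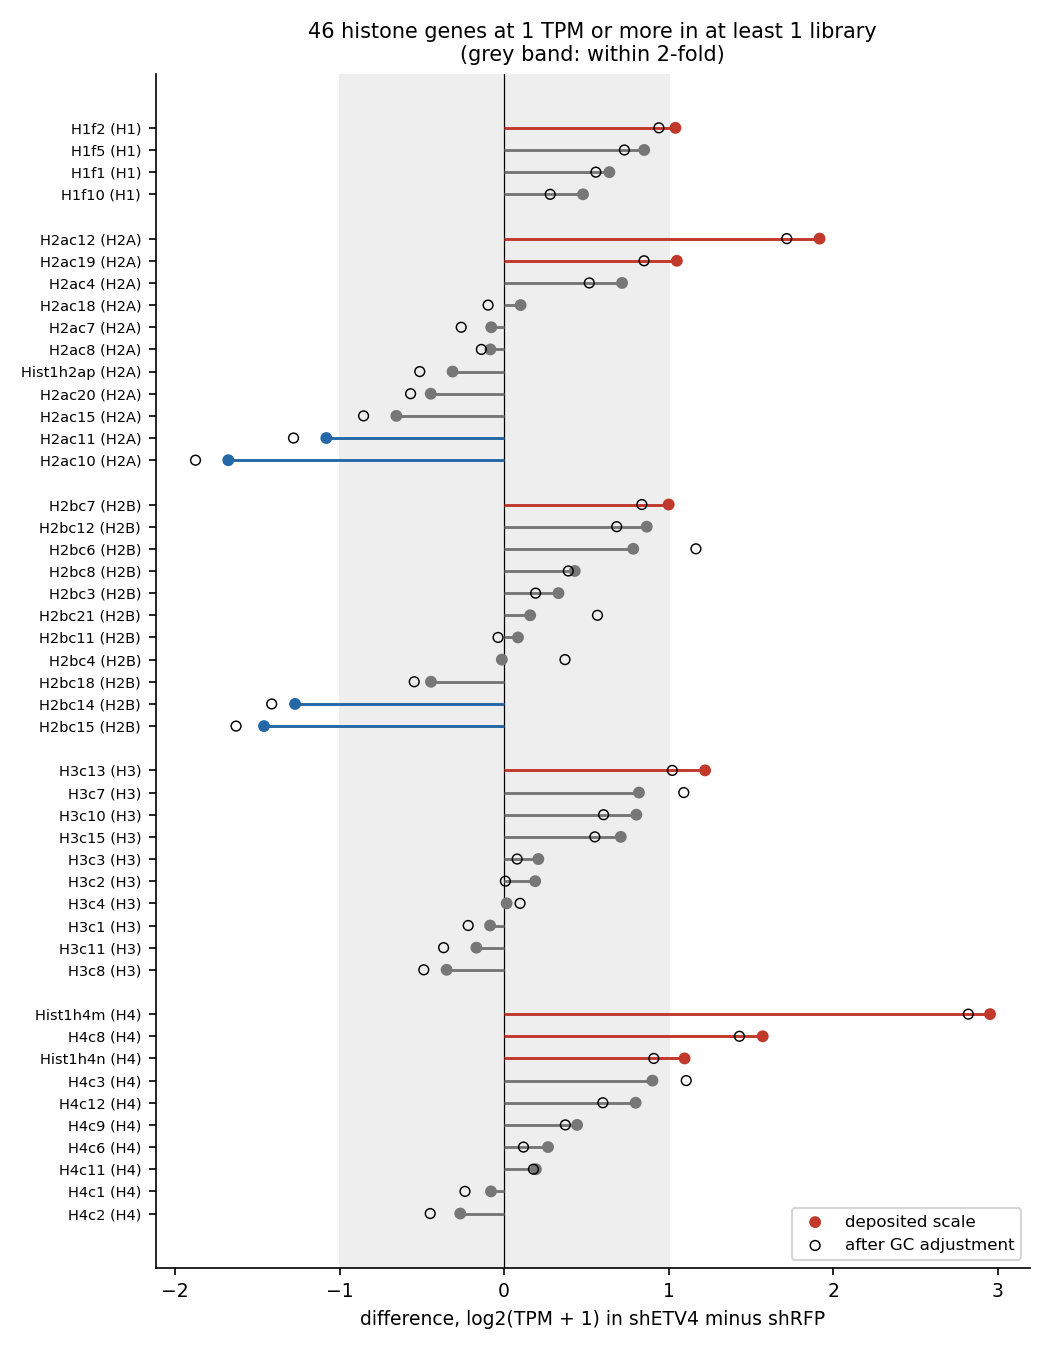
Difference in log2(TPM + 1), shETV4 minus shRFP, of the 46 histone genes that reached 1 TPM in at least 1 library, ordered within each type; filled points are on the deposited scale (red higher, blue lower by 2-fold) and open circles after subtraction of the running median over GC content. Of the H4 genes 8 of 10 lie right of 0 and of the H2A genes 4 of 11, beside 41.6% of all 12968 genes. Hist1h4m has the largest difference at 2.95.

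Linker histone genes were all at or above their shRFP value with shETV4. H1f2 was called higher at 18.44 and 39.0 TPM, 2.12-fold, a difference of 1.04 that is 0.94 after adjustment for GC content. The other genes for somatic H1 subtypes were low: H1f5 was at 0.89 and 2.41 TPM, H1f1 at 0.38 and 1.15 TPM, H1f4 at 0.36 and 0.57 TPM and H1f3 at 0.07 and 0.27 TPM. Each of these 4 was higher with shETV4 and within 2-fold on the log2(TPM + 1) scale or under 1 TPM in both. The testis gene H1f6 was listed at 0. Summed over the type the TPM was 44.66 and 77.98, 1.75-fold higher with shETV4, and without H1f10 it was 20.14 and 43.4, 2.15-fold. H1 genes share little sequence with each other: at the median 2.25% of a member's 50-base windows occur in a transcript of another gene, and H1f1, H1f5 and H1f6 share none.

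H2A genes, which make a core histone that pairs with H2B, showed no common direction. Of 19, 11 reached 1 TPM, and 2 were called higher, 2 lower and 7 within 2-fold, with a median difference of -0.08. Of all genes 3.39% were called higher and 7.06% lower. H2ac12 was at 1.18 and 7.23 TPM, 6.13-fold higher. H2ac19 was at 7.3 and 16.18 TPM, 2.22-fold higher, and was the H2A gene with the highest level with shETV4. In the other direction, H2ac10 was at 4.91 and 0.85 TPM and H2ac11 at 5.49 and 2.07 TPM, differences of -1.68 and -1.08. H2ac10 reached 1 TPM only with shRFP. H2ac8, at 7.21 and 6.75 TPM, Hist1h2ap, at 5.46 and 4.2 TPM, and H2ac7, at 3.75 and 3.5 TPM, were the next most abundant and lay within 2-fold. The sum over the type was 42.21 and 48.01 TPM, 1.14-fold, and without H2ac19 it was 34.91 and 31.83 TPM, so that its direction rests on that gene.

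Which H2A gene a read came from was often undefined. At the median 78.9% of an H2A member's 50-base windows occur in a transcript of another gene, and the share was 92.1% for H2ac12 and 94.0% for H2ac10. For H2ac19 all windows recur, and its closest copy H2ac18, the neighbouring gene of the Hist2 cluster, was at 1.08 and 1.23 TPM. The sum of that pair was 8.38 and 17.41 TPM, 2.08-fold higher with shETV4. Both genes lie wholly within exons of another gene, so the sum of the pair is uncertain as well. Without members that lie mostly in such exons, the log2 ratio of summed H2A TPM was -0.17, against 0.19 with them. H2ac12 shared most with H2ac7, and their sum was 4.93 and 10.73 TPM, 2.18-fold. H2ac10 also shared most with H2ac7, in 79.7% of its windows, and went the other way, at 4.91 and 0.85 TPM. The sum of H2ac12 and H2ac7 therefore does not settle how reads were divided among these genes. Hist1h2ao and Hist1h2ap, alike in 93.5% of the windows of the former, summed to 6.21 and 4.2 TPM, with Hist1h2ao listed at 0 with shETV4. The sources used here do not say how the authors' counting divided reads among such genes. Of the 19 H2A members, 18 overlap a short record annotated as miRNA, and each of those records was listed at 0 in both libraries. Such a record counts as another gene in the window shares above. Part of a share can thus come from this overlap and not from likeness to another H2A gene.

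H2B genes were led by H2bc4, whose level was the same in both libraries to within 1.01-fold. Of 17, 11 reached 1 TPM, 1 was called higher and 2 lower, with a median difference of 0.16. Of all genes 3.39% were called higher and 7.06% lower. The genes called lower were H2bc15, at 3.15 and 0.51 TPM, and H2bc14, at 2.4 and 0.41 TPM, differences of -1.46 and -1.27. Both reached 1 TPM only with shRFP. H2bc7, at 0.26 and 1.52 TPM, lay exactly on the threshold, at a difference of 1.0, and at 0.84 after GC adjustment. It reached 1 TPM only with shETV4. Of the other H2B genes, H2bc12 was at 1.89 and 4.27 TPM, H2bc8 at 2.75 and 4.05 TPM and H2bc11 at 1.82 and 1.99 TPM. All of these lay within 2-fold on the log2(TPM + 1) scale, though the ratio of TPM was 2.26 for H2bc12. The sum was 59.08 and 61.65 TPM, 1.04-fold, of which H2bc4 made up 72.5% with shRFP and 68.8% with shETV4. Without H2bc4 the sum was 16.24 and 19.22 TPM, 1.18-fold.

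H3 genes were uniformly low, with a highest level of 4.35 TPM with shRFP (H3c8) and 3.84 TPM with shETV4 (H3c3). Of 12, 10 reached 1 TPM. H3c13, at 0.87 and 3.36 TPM, was called higher with a difference of 1.22, none was called lower and 9 were within 2-fold. Of all genes 3.39% were called higher and 7.06% lower. H3c13 reached 1 TPM only with shETV4. H3c8 itself was at 4.35 and 3.2 TPM, H3c3 at 3.19 and 3.84 TPM, H3c2 at 2.86 and 3.4 TPM and H3c11 at 2.09 and 1.75 TPM, so the more abundant H3 genes went both ways. H3c10, at 1.24 and 2.91 TPM, and H3c15, at 1.6 and 3.25 TPM, were higher but within 2-fold on the scale used. The sum was 20.49 and 27.75 TPM, 1.35-fold higher with shETV4. All windows of H3c13 occur in other transcripts, and its exon lies wholly within exons of another gene, so its own value is uncertain.

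The histone gene with the largest difference was an H4 gene, Hist1h4m. Of 12 H4 genes, 10 reached 1 TPM, 3 were called higher, none lower and 7 within 2-fold, and the median difference was 0.62. Of all genes 3.39% were called higher and 7.06% lower. Hist1h4m was at 0.73 and 12.39 TPM, 17.0-fold higher with shETV4, a ratio that rests on an shRFP value under 1 TPM. It passed the 1 TPM filter only through shETV4, the library where it is high. It stayed past 2-fold in all 7 other settings tried for single members, but those that change only the filter could not alter its difference. H4c8 was at 2.19 and 8.48 TPM, 3.87-fold, and Hist1h4n at 1.67 and 4.71 TPM, 2.82-fold, the latter inside 2-fold after GC adjustment at 0.91. H4c9, the most abundant histone gene, was 1.37-fold higher, at a difference of 0.44. H4c12 was at 4.31 and 8.24 TPM and H4c3 at 0.44 and 1.69 TPM, with differences of 0.80 and 0.90, while H4c2 at 3.39 and 2.65 TPM and H4c1 at 2.54 and 2.35 TPM lay below 0. The sum over the type was 89.38 and 141.67 TPM, 1.59-fold higher with shETV4, and without H4c9 it was 19.4 and 46.14 TPM, 2.38-fold.

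Hist1h4m and Hist1h4n are near-identical copies in opposite orientation, and their upstream sequences are printed to show how little separates them. The 250 bases before the RefSeq start of each gene (GRCm38.p6) follow, with those of H4c9 for comparison; capitals mark, on either strand, the TATA, CCAAT box and octamer letters that are spelled out with the motif search.
Hist1h4m (chr13:21811496-21811745, plus strand): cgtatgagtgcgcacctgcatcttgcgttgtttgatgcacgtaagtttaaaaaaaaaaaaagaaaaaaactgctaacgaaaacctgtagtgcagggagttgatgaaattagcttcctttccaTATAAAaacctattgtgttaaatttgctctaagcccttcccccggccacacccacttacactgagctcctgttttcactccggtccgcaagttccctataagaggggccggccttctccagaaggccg
Hist1h4n (chr13:21832198-21832447, minus strand): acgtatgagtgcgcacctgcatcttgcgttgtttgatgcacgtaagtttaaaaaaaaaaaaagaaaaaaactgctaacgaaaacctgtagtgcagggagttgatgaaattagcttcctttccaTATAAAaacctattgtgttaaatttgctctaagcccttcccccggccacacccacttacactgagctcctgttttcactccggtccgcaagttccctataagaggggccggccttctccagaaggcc
H4c9 (chr13:22041363-22041612, minus strand): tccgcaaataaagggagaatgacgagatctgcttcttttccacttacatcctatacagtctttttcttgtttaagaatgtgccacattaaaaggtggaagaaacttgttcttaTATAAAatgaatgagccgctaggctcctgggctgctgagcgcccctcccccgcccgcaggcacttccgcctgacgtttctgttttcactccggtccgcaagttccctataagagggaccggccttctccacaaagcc
The upstream sequences of Hist1h4m and Hist1h4n share an unbroken identical run of 249 bases, whereas the longest run that Hist1h4m shares with H4c9 is 38 bases. In the transcripts, 89.8% of the 50-base windows of Hist1h4m occur in Hist1h4n. The annotated transcript of Hist1h4m stops 3 bases after the hairpin printed above and that of Hist1h4n 31 bases after it. The sum of the pair, which depends less on how reads were split between them than either value does, was 2.4 and 17.1 TPM, 7.13-fold higher with shETV4; their annotated lengths, by which TPM divide, are 402 and 430 bases. Of the windows of Hist1h4n, 83.2% occur in Hist1h4m and 85.6% in any other gene, Hist1h4m included. Other H4 genes also share windows with both.

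Many H2A and H2B genes lie head to head and share the stretch from which both are transcribed. In the members there were 13 such pairs with starts 175 to 305 bases apart, each of an H2A and an H2B gene. In 6 of them both genes reached 1 TPM, and the partners lay on the same side of 0 in 2 and on opposite sides in 4. H2ac12 and H2bc12 were both higher with shETV4, at differences of 1.92 and 0.87, and H2ac15 and H2bc15 both lower, at -0.65 and -1.46. H2ac11 and H2bc11 were at -1.08 and 0.08, H2bc7 and H2ac7 at 1.0 and -0.08, and H2ac20 and H2bc21 at -0.45 and 0.16. The highest H2B gene, H2bc4, at 42.84 and 42.43 TPM, is paired across 250 bases with H2ac6, at 0.3 and 0.55 TPM. In 3 of the 4 pairs with opposite signs 1 partner lay within 0.1 of 0, so these values show no clear common or opposite direction of partners.

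Promoter letters differed by histone type. In 300-base windows from RefSeq, 250 before to 50 after the start, found for 59 members, CCAAT on either strand was present in all 16 H2A, all 15 H2B and all 10 H3 genes and in 3 of 11 H4 genes, against 41.1% of 27025 genes in the table. The octamer ATTTGCAT, the site of the factor Oct-1 in H2B promoters, was in 7 of 15 H2B and 6 of 16 H2A genes, whose windows overlap where the genes are paired, in no H1, H3 or H4 gene, and in 1.97% of all genes. AAACACA, part of the AC box of H1 promoters, was in 5 of 7 H1 genes and in 8.22% of all genes. TATAAA was in 34 of the 59, against 15.7%. CCGGAAGT, a form of the ETS site, was in none of the 59 windows and in 4.31% of all genes; that says only that these letters are not in these windows.

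Of 18 genes for transcription and 3′ end formation of histone mRNA, 17 reached 1 TPM. None of them was called higher and 3 were called lower, beside 3.39% and 7.06% of all genes, at a median of -0.22 beside -0.10, and after GC adjustment 1 was lower. Slbp, the stem-loop binding protein, was at 114.32 and 78.0 TPM, within 2-fold. Npat, the coactivator of histone gene transcription, was at 6.59 and 2.34 TPM, and Casp8ap2, which encodes the processing factor FLASH, at 5.94 and 2.32 TPM; both were called lower and lay at -0.38 and -0.26 after GC adjustment. Pou2f1, which encodes Oct-1, was at 5.95 and 1.38 TPM, a difference of -1.55 that was -1.58 after adjustment. Lsm10, a protein of the U7 particle, was at 33.98 and 42.46 TPM, and its partner Lsm11 at 5.1 and 6.39 TPM. Srrt had the highest level of the list, 179.67 and 159.26 TPM. The U7 RNA gene Rnu7 was listed at 0 in both libraries.

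The 11 histone genes listed as expressed outside S phase all reached 1 TPM, and none was called higher or lower; the median of their differences was -0.05. Their median was 125 TPM in shRFP and 137 TPM in shETV4, and the lowest were H1f10, which is also among the 67, at 24.52 and 34.58 TPM and Macroh2a2 at 32.5 and 17.57 TPM, both below the clustered gene H4c9. H2az1, which encodes H2A.Z, was at 1382.52 and 1151.77 TPM. H3f3a, a gene for H3.3, was at 686.33 and 561.67 TPM, and the other, H3f3b, at 566.13 and 382.27 TPM. H2ax, which has the hairpin and is known to make both kinds of mRNA end, was at 124.78 and 120.85 TPM. H1f0, the linker histone of resting cells, was at 150.94 and 167.24 TPM. Each H3.3 gene thus lay above the 20.49 and 27.75 TPM of all clustered H3 genes together.

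Of 21 histone chaperone genes, 3 were called lower and none higher, beside 7.06% and 3.39% of all genes, with a median of -0.19 beside -0.10, and after GC adjustment 1 was lower. The 3 were Atrx, the remodeller that deposits H3.3 with Daxx, at 29.34 and 5.43 TPM, Supt16, a subunit of FACT, at 55.92 and 22.28 TPM, and Hat1, which acetylates new H4, at 107.25 and 46.55 TPM; Supt16 and Hat1 were inside 2-fold after GC adjustment at -0.77 and -0.50. Rbbp7, with the highest level, was at 364.68 and 277.58 TPM. Of 26 genes of S phase entry and DNA replication, 24 were within 2-fold and 2 (7.69%) were called lower, a share near the 7.06% of all genes. They were Pola1 at 15.68 and 5.95 TPM and Ccne2 at 11.5 and 4.32 TPM, and the median of the list was -0.15 (-0.04 after GC adjustment). Pcna, the sliding clamp, was at 347.15 and 276.16 TPM.

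Among other RNAs without a poly(A) tail, those that could be evaluated were higher with shETV4. From 26 names, 1 of them unmatched, there were 32 records, of which 16 were listed at 0 in both libraries and 1 was under 1 TPM; all 15 that reached 1 TPM were called higher, with a median difference of 4.04. Of these 15, 6 passed the filter through shETV4 alone and so had to lie higher, and 4 records of Rnu3b genes hold the same values, 3.85 and 14.55 TPM, so the records are not separate measurements. Rn7s1 and Rn7s2, records of the signal recognition particle RNA with the same values, were each at 19.22 and 569.68 TPM, the highest of the list. Rn7sk, the 7SK RNA, was at 36.8 and 265.73 TPM, Rpph1, the RNA of ribonuclease P, at 18.59 and 218.4 TPM, and the higher record of Rmrp at 10.51 and 222.36 TPM. Rnu12, Rnu2-10 and Rnu1b2, RNAs of the spliceosome, were listed at 0 with shRFP and were at 21.57, 16.79 and 15.42 TPM with shETV4. Annotated classes were counted over genes that reached 1 TPM in either library, not necessarily in both. Of 18 snRNA genes, 18 lay higher by 2-fold and 0 lower, and of 27 snoRNA genes 19 higher and 4 lower. By contrast, of 16 misc_RNA genes 5 lay higher and 9 lower, and of 10 miRNA genes 4 higher and 3 lower. Over all 12968 genes the shares were 3.39% higher and 7.06% lower. How many genes of each class passed the filter through 1 library alone, which sets their direction, was not counted. The part of the difference of these RNAs in that of the histone genes was not tested.

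**Figure D4:**
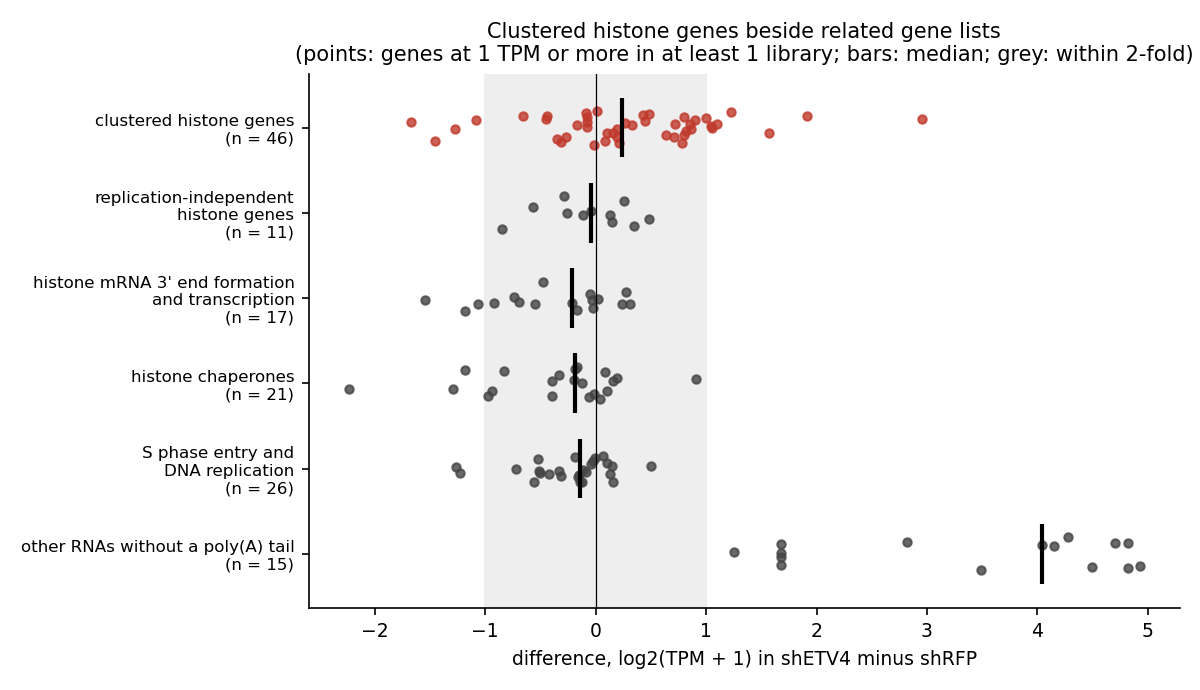
Difference in log2(TPM + 1), shETV4 minus shRFP, of the clustered histone genes and of 5 related lists; points are genes that reached 1 TPM in at least 1 library, bars the median and the grey band 2-fold. The clustered histone genes spread to both sides around a median of 0.24, the 4 lists of protein-coding genes have medians from -0.22 to -0.05, and the 15 other RNAs without a poly(A) tail all lie past 2-fold upward.

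Base composition also moved with the difference across the libraries. Its rank correlation with transcript GC content was 0.52 over 12947 genes, which share 2 libraries and are no replicates, and -0.11 over the 46 histone genes, whose median GC content of 59.5% lies above the 50.7% of all genes. After the running median over GC content was subtracted, 7 members were higher and 4 lower, against 4.0% and 2.32% of all genes, with a median of 0.24. H1f2, H2ac19, H2bc7 and Hist1h4n came inside 2-fold, and H2bc6, H3c7 and H4c3 came past it upward. The pass at 1 TPM bears on these counts too. Of the members higher after adjustment, H2bc6, H3c7, H4c3, H3c13 and Hist1h4m reached 1 TPM only with shETV4. Of those lower, H2ac10, H2bc14 and H2bc15 reached it only with shRFP. Etv4 itself was at 73.24 and 16.2 TPM, 4.52-fold lower with shETV4. None of 5 hepatocyte markers reached 1 TPM, with Alb listed at 0 in both libraries and the others at up to 0.62 TPM; of the progenitor and biliary markers 5 of 7 did. Of those 5, Cd24a was called lower, at 131.91 and 55.52 TPM, and the others lay within 2-fold: Krt18 at 49.09 and 30.93 TPM was lower, and Sox9 at 28.04 and 45.4 TPM, Krt19 at 27.48 and 36.25 TPM and Spp1 at 423.19 and 475.88 TPM were higher. Epcam and Krt8 stayed under 1 TPM. All 5 stellate cell and fibroblast markers reached 1 TPM, with Col1a1 at 200.4 and 229.41 TPM. Immune markers were at up to 1.98 TPM and endothelial markers at up to 0.66 TPM.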

How the data were processed

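RNA of LPC-HRas cells carrying shRFP or shETV4 was sequenced, with 1 library per group and groups taken from the labels. The deposited values are TPM per gene, computed by the authors; HISAT2, RSEM and GRCm38.p4 are named per the submitters' processing notes, without their roles or versions. The TPM summed to 999999.77 and 999870.3, and 12456 and 12281 genes reached 1 TPM. Depth cannot be read from TPM, so no interval was given. From 55640 records, 153 without a name were left out.

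Differences were log2(TPM + 1) in shETV4 less that in shRFP, for genes that reached 1 TPM in either library, called at 2-fold. Python 3.11.15, numpy 2.4.6 and pandas 2.3.3 were used, and steps were tested on simulated data. The simulation took genes at 5 TPM or more in shRFP, so it did not cover the lower levels of most members. No p-value was computed. Members were matched by gene ID to GENCODE M21 (GRCm38) for positions, transcripts, 50-base windows shared with other genes on either strand and the stem-loop, and to RefSeq (GRCm38.p6) for promoters. GC content was that of transcripts, and the GC adjustment subtracted the median difference of 50 GC bins, interpolated between them. Any member that reached 1 TPM could be named, foremost within a type the 4 with the highest mean TPM and up to 4 with the largest difference in each direction past 2-fold; from each list up to 3 past 2-fold in each direction and the gene with the highest mean. Members that stayed under 1 TPM, Slbp, Lsm10, Lsm11, Rnu7, H3f3a, H3f3b, H2ax, H1f0, Macroh2a2, the Rnu3b genes, Rn7sk, Rpph1, the spliceosomal RNAs and the cell type markers printed were named for their roles after their values were seen. The members and lists were chosen with earlier results of these data known. Alternatives were another pseudocount, filter, scale, fold threshold and GC adjustment, and leaving out members.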

Additional observations from a re-analysis of the deposited data

How the results depend on the processing

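Of 66 values compared with an alternative setting, 40 kept their direction and stayed close, 24 moved further and 2 reversed. Close means within 1.5 times for a count and under 0.1 on the log2 scale for a difference. Where a value changed, the cause was not tested. Some of the 40 could not have changed. No pseudogene was among the 46 members, and H1f10 was not called. A member under 1 TPM in both libraries cannot reach 2-fold with a pseudocount of 1, so dropping the filter could not alter the counts. No H1 gene lies mostly in exons of another gene, so leaving such members out could not alter the H1 sum. Setting the median ratio to 1, a factor of -0.07, shifts every log2 ratio of summed TPM by less than 0.1, so these had to stay close. The trimmed mean, at -0.13, shifts each by more than 0.1, so these had to move. No paired analysis was possible because there is 1 library per group. The 8 members called higher became 16 with a pseudocount of 0.1, 1 with 5, 5 with a filter of 5 TPM, 18 at 1.5-fold, 2 at 3-fold and 5 among members that reached 1 TPM in both, a setting chosen after seeing the data. The 4 called lower became 0 with a pseudocount of 5, and 1 each with the 5 TPM filter, at 3-fold and among members that reached 1 TPM in both. Shares over all genes were not computed at these settings. The counts therefore show only how far the calls of members depend on the setting. The median difference of 0.24 became 0.35 with a pseudocount of 0.1, 0.11 with 5 and 0.64 with the 5 TPM filter. With the trimmed mean of log ratios divided out (a scale factor of -0.13 on the log2 scale, which raises every difference by as much), log2 ratios of summed TPM were 0.93 for H1, 0.32 for H2A, 0.19 for H2B, 0.57 for H3 and 0.79 for H4, against 0.80, 0.19, 0.06, 0.44 and 0.66. Without the highest member of each type they were 1.11 for H1, where that member is H1f10, -0.13 for H2A, 0.24 for H2B, 0.61 for H3 and 1.25 for H4. Without members that lie mostly in exons of another gene they were -0.17 for H2A and 0.30 for H3.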

Other observations

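Some histone genes of the same kind fall outside the symbol pattern. H2aw, on chromosome 11 and earlier named Hist3h2a, carries the stem-loop hairpin and was at 5.09 and 6.88 TPM in shRFP and shETV4. Its neighbour H2bu2, earlier Hist3h2ba, was at 1.94 and 0.31 TPM, a log2(TPM + 1) difference of -1.17. H4f16, the H4 gene on chromosome 6, was at 0.12 and 0.11 TPM. The pseudogene H2ac5-ps, on chromosome 13, was at 2.5 TPM in shRFP and listed at 0 in shETV4.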
